A study of Mus musculus with 12 samples.

Results

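The endocannabinoid system of the mouse heart was followed through 8 genes, taken by name: the cannabinoid receptors Cnr1 and Cnr2, the synthetic enzymes Dagla, Daglb and Napepld, and the hydrolases Faah, Mgll and Abhd6. All 8 were among the 47729 genes of the counts table, and 7 were among the 15336 that passed a filter on low counts. Cnr1 did not pass it. The genes were measured by RNA sequencing of hearts in 4 groups of 3 libraries, and the labels do not say which part of the heart was taken. All mice were male C57BL/6 of 8 weeks that carried a subcutaneous osmotic pump for 28 days. The EHP-101 group received angiotensin II (Ang II), the pressor hormone of the renin system, and oral EHP-101 at 20 mg/kg in the last 2 weeks. The losartan group received Ang II and losartan at 0.6 g/L in the drinking water over the same 2 weeks. The Ang II group received Ang II and vehicle, and the Control group was infused with saline. EHP-101 is an oral form of a cannabidiol derivative that activates the cannabinoid receptor CB2 and the nuclear receptor PPARγ, and losartan is an antagonist of AT1, the main receptor of Ang II. The data thus include the RNA of one of the compound's own receptors.

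Endocannabinoids are lipid messengers cut from membrane lipids on demand. The best known are 2-arachidonoylglycerol and anandamide, and both bind the G protein-coupled receptors CB1, encoded by Cnr1, and CB2, encoded by Cnr2. CB1 is mainly a receptor of neurons and CB2 mainly one of leukocytes. The diacylglycerol lipases encoded by Dagla and Daglb make 2-arachidonoylglycerol, and the phospholipase D encoded by Napepld releases anandamide and related N-acylethanolamines. Fatty acid amide hydrolase, from Faah, degrades anandamide, while monoacylglycerol lipase, from Mgll, and the serine hydrolase from Abhd6 degrade 2-arachidonoylglycerol. Monoacylglycerol lipase also completes the breakdown of stored fat to fatty acids and glycerol, a role outside cannabinoid signalling.

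The promoters of the receptors and of the hydrolases at the opposite ends of the expression range are shown because they differ in CpG content. Each runs from 250 bases before to 50 bases after a RefSeq gene start in GRCm38.p6, with every CG pair in capitals. The Cnr1 promoter is chr4:33924394-33924693 on the plus strand, Cnr2 is chr4:135894939-135895238 on the plus strand, Faah is chr4:116017875-116018174 on the minus strand, and Mgll is chr6:88724162-88724461 on the plus strand.
Cnr1: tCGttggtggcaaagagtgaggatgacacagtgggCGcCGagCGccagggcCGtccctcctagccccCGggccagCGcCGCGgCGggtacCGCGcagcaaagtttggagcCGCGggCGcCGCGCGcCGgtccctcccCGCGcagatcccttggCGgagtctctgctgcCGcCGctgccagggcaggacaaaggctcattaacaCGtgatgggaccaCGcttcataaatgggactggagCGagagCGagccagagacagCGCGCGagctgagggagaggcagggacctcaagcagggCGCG
Cnr2: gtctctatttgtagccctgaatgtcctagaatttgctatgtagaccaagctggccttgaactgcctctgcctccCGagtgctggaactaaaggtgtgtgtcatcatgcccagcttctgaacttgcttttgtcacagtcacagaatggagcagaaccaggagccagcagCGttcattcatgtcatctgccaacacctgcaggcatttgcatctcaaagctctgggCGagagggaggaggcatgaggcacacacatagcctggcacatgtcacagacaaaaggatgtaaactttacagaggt
Faah: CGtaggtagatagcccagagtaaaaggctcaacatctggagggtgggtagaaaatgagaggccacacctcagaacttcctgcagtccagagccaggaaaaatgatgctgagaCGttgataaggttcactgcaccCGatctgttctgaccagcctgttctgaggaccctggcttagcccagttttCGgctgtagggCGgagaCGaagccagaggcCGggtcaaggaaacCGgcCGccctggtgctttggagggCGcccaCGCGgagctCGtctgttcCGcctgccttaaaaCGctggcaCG
Mgll: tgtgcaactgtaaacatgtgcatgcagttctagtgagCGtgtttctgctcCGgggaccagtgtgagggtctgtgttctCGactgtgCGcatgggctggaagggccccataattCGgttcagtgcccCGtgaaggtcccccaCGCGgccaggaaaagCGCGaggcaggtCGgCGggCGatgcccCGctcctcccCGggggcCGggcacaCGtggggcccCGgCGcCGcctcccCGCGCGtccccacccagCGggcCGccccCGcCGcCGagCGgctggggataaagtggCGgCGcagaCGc

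An entry for 7 of the genes was found in the RefSeq promoter table. Cnr1 had 3 entries and Cnr2, Mgll and Abhd6 had 2 each, and the start nearest to that of the GENCODE M21 annotation was taken. That start lay 205 bases from the GENCODE start for Cnr2, 226 for Napepld and at most 91 for the others. CpG counts of the other entries are not given. The CpG pairs numbered 33 for Cnr1, 32 for Mgll, 28 for Napepld, 24 for Abhd6, 16 for Faah, 11 for Daglb and 3 for Cnr2, where the median over 32851 promoters of 300 bases was 7. As many pairs or more were held by 8.56% of those promoters for Cnr1, 9.52% for Mgll and 76.7% for Cnr2. CpG count did not order the genes by their RNA in these hearts: the promoters of Cnr1 and Mgll are both rich in CpG, and these were the genes with the least and the most RNA per length of the 8. The letters AGGTCA, one arm of a nuclear receptor repeat, and TATAAA were each searched on both strands and found in none of the 7 windows, against 16.3% and 13.6% of all promoters.

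In GRCm38 with the GENCODE M21 annotation, Cnr1 (ENSMUSG00000044288) lies at chr4:33924593-33948831 and Cnr2 (ENSMUSG00000062585) at chr4:135895394-135920207, both on the plus strand. Faah (ENSMUSG00000034171) is also on chromosome 4, at chr4:115967145-116017926 on the minus strand. Dagla (ENSMUSG00000035735) spans chr19:10245265-10304877 and Napepld (ENSMUSG00000044968) chr5:21662901-21701396, both on the minus strand. On the plus strand, Daglb (ENSMUSG00000039206) spans chr5:143464584-143505942, Mgll (ENSMUSG00000033174) chr6:88724412-88828360 and Abhd6 (ENSMUSG00000025277) chr14:8002902-8056763. Exons of Daglb share 2309 of their 9567 bases with Rac1 on the other strand, and exons of Mgll share 167 of 5077 with the predicted gene Gm26588. The library kit keeps no strand, so the levels of Daglb and Mgll are uncertain to that extent.

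Total counts per library were 22745721 to 23521895 in the EHP-101 group, 22574756 to 23730465 in the losartan group, 23585132 to 24040516 in Ang II hearts and 22155418 to 23766752 in Control hearts. Per-million counts (CPM) were taken over library sizes scaled by TMM, a factor that evens out libraries in which a few genes take many reads. Control replicate 2 stood apart, at a distance of 84.37 from the centre on a first principal component that held 35.27% of the variance, where no other library lay beyond 32.41. Cardiomyocyte markers (Myh6, Actn2, Tnnt2, Ryr2 and Myl2) summed to between 31720 and 45610 CPM in every library. Summed atrial markers ranged from 119.8 to 702 CPM in EHP-101 hearts and from 13.1 to 1353 in losartan hearts, against 1030 to 1968 in Ang II hearts and 123.7 to 1340 in Control hearts. No list of cell type markers was wholly at 0. The labels do not say whether replicates were separate animals, so p-values measure only how these libraries differ, and that difference may be technical.

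Mgll dominated the 8 genes in RNA per length. Divided by kilobases of exon, its CPM averaged 34.0 over the 12 libraries, above 93.9% of the tested genes. Abhd6 followed at 3.22 (percentile 50.4) and Napepld at 2.64 (percentile 45.5), and then Dagla at 1.29 and Daglb at 1.25 (percentiles 31.5 and 30.9). Cnr2 stood at 0.263, or percentile 9.76. Faah, at 0.0635, lay at percentile 0.719, and Cnr1, at 0.02503, at percentile 0.0588 of the same scale. On this per-length scale the lowest Mgll library, at 29.0, was above the highest library of any other member, which was Napepld at 4.72. Abhd6 and Napepld overlapped, with 2.63 to 4.19 and 1.88 to 4.72, and so did Dagla and Daglb, with 0.825 to 1.71 and 0.938 to 1.42. Cnr2, from 0.143 to 0.367, met Faah, from 0.00687 to 0.150, only at the edge, and the Cnr1 libraries, from 0 to 0.0698, overlapped the lower Faah libraries. The synthetic enzymes were thus well below the lipase Mgll and well above both receptors in RNA per length. Abhd12, a 2-arachidonoylglycerol hydrolase that is not a member, had 13.7 to 22.4 CPM per kilobase, below Mgll and above every other member.

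**Figure D1:**
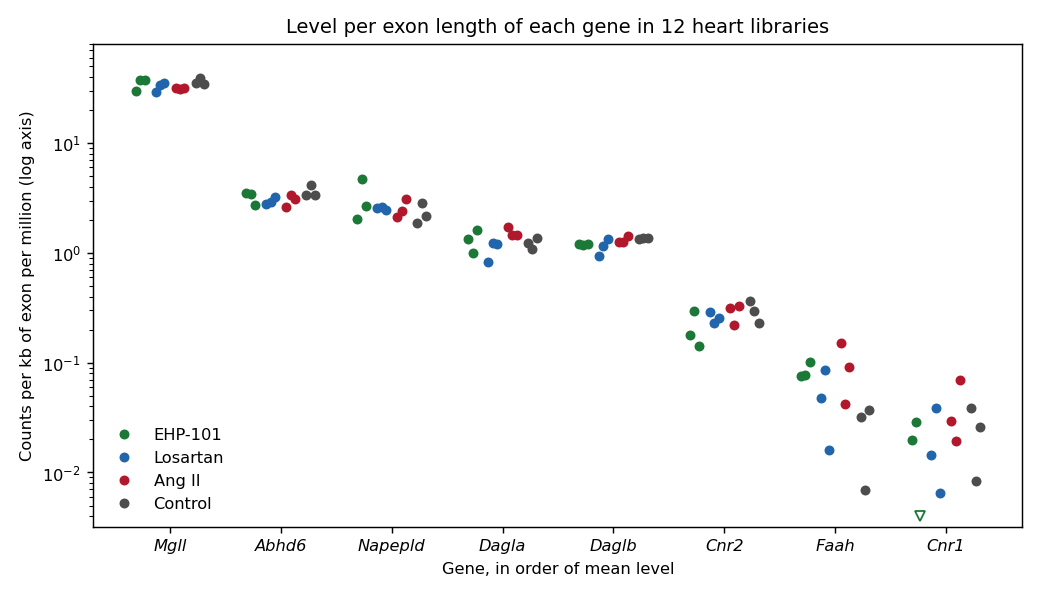
CPM per kilobase of exon (log axis) of the 8 genes in each of the 12 libraries, with colours for the 4 groups and an open triangle for the library with 0 Cnr1 reads. Mgll lies between 29.0 and 39.3 in all libraries, the next 4 genes between 0.825 and 4.72, and Cnr2, Faah and Cnr1 below 0.37.

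None of the 7 tested genes passed an adjusted p of 0.05 (edgeR quasi-likelihood test, Benjamini-Hochberg over all tested genes) in any comparison. Over all tested genes 0.541% passed for Ang II against Control and 0% for EHP-101 against Ang II, for losartan against Ang II and for EHP-101 against losartan. DESeq2 and limma-voom also called 0 of the 7 in each. At an unadjusted p under 0.05 there was 1 member for Ang II against Control (Faah), where 17.6% of all tested genes were below that value, and 1 for losartan against Ang II (Dagla), where 8.41% were. There were 0 for EHP-101 against Ang II and 0 for EHP-101 against losartan, against 7.22% and 6.04% of all tested genes. A test of any difference among the 4 groups also called 0 of the 7, against 0.189% of all tested genes, with the smallest adjusted p at 0.383 for Faah. DESeq2 and limma-voom had the same numbers below an unadjusted 0.05 in the 4 comparisons. These results describe bulk RNA, in which fewer cells of a type and less RNA per cell cannot be told apart.

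The values of single libraries separated the groups for a few members. For Ang II against Control the libraries did not overlap for 3 of the 7, where 22.6% of all tested genes were so separated. Of the 3, Dagla and Faah were higher, against 12.3% of all genes, and Mgll was lower, against 10.3%. Without TMM scaling the Mgll libraries of these groups overlapped. For EHP-101 against Ang II the only one was Daglb, lower under EHP-101, against 16.8% of all genes in either direction and 9.74% lower. For losartan against Ang II it was Dagla, lower under losartan, against 19.7% in either direction and 10.5% lower. EHP-101 and losartan overlapped for all 7 members, where 13.3% of all genes were separated. The median log2 fold change of the 7 was -0.05 for Ang II against Control, -0.13 for EHP-101 against Ang II, -0.16 for losartan against Ang II and 0.12 for EHP-101 against losartan, and the medians over all tested genes were 0.00 in each. The EHP-101 and losartan comparisons share the Ang II libraries.

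**Figure D2:**
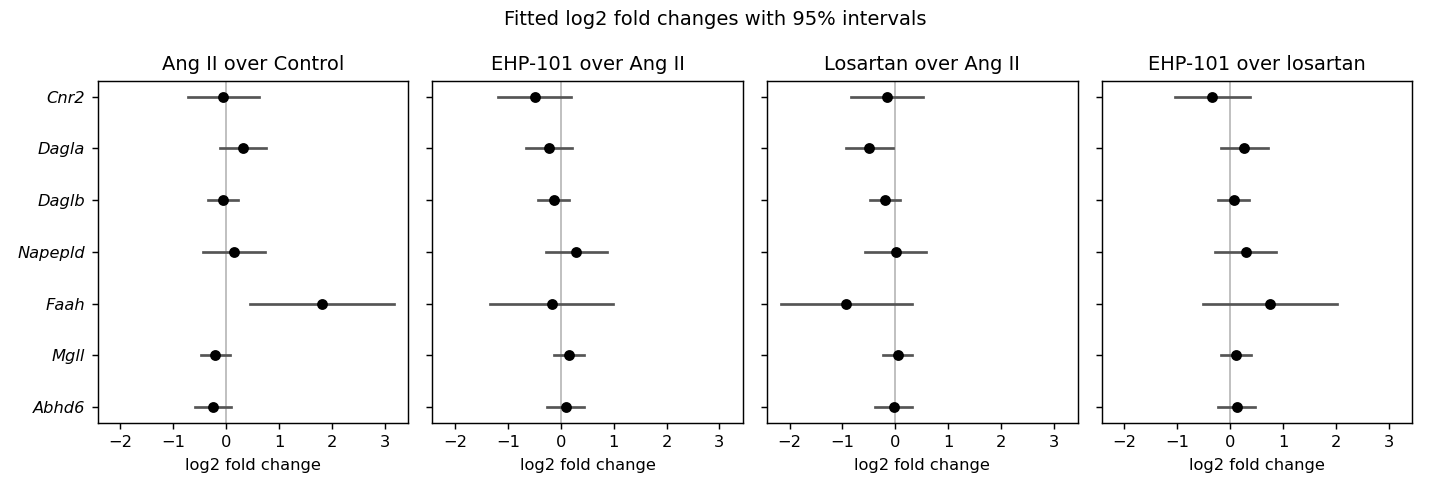
Fitted log2 fold changes (points) of the 7 tested genes in the 4 comparisons, with 95% intervals from the edgeR fit (bars), the first-named group over the second. All intervals include 0 except those of Faah for Ang II over Control, from 0.457 to 3.18, and of Dagla for losartan over Ang II, from -0.926 to -0.0535, neither of which passed after adjustment over all genes. Faah passed the filter on low counts through libraries outside the Control group.

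Cnr2, the receptor that EHP-101 addresses, was read at low depth in every heart, with 13 to 35 reads per library. It had 0.719, 1.17 and 0.569 CPM in the EHP-101 libraries and 1.16, 0.920 and 1.01 under losartan, against 1.25, 0.872 and 1.31 in Ang II hearts and 1.46, 1.18 and 0.918 in Control hearts. The 2 lowest of the 12 values were both EHP-101 libraries, but the third EHP-101 library lay inside the range of the Ang II group, so the groups overlapped. Under EHP-101 the mean was 0.819 ± 0.31 CPM, against 1.15 ± 0.24 with Ang II alone (SD, n = 3 each). The log2 fold change was -0.49 ± 0.32 (SE; 95% interval -1.18 to 0.201; adjusted p = 0.873, edgeR). Leaving out single libraries gave -0.83 to -0.29, the first of these without EHP-101 replicate 2 and the second without EHP-101 replicate 3. Losartan against Ang II gave -0.16 ± 0.31 (adjusted p = 0.953) and EHP-101 against losartan -0.33 ± 0.32 (95% interval -1.04 to 0.369, adjusted p = 0.979). For Ang II against Control it was -0.05 ± 0.31, with a 95% interval from -0.719 to 0.622 (adjusted p = 0.947). These intervals include changes in either direction.

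The reads behind these values were few. Summed over a group, Cnr2 had 55 reads under EHP-101, 71 under losartan, 89 with Ang II only and 79 in Control hearts. With exact Poisson 95% intervals, which cover counting error only, this was 0.810 CPM (0.611 to 1.06) under EHP-101, 1.03 (0.802 to 1.30) under losartan, 1.15 (0.927 to 1.42) with Ang II and 1.19 (0.941 to 1.48) in Control hearts. The coefficient of variation within groups was 23.6%, where counting by itself gives 20.2%. Macrophage and B cell markers, from cells known to carry CB2, were counted in the same libraries. The 8 macrophage and monocyte markers summed to 149.8, 143.3 and 74.6 CPM under EHP-101, against 184.5, 167.1 and 219.3 with Ang II alone. The library with the lowest sum, EHP-101 replicate 3, was also the one with the lowest Cnr2, but EHP-101 replicate 1, with the highest sum of its group, had the second lowest Cnr2 of the 12. The sums were 135.2 to 171.2 CPM under losartan and 133.8 to 178.3 in Control hearts. All 8 markers had a negative log2 fold change for EHP-101 against Ang II, 6 of them at an unadjusted p under 0.05 (5.11% of all genes were lower at that value), with 0 past the threshold in edgeR and in limma-voom and 1 (Fcgr1) in DESeq2. Under losartan 7 of the 8 were negative against Ang II, 4 at an unadjusted p under 0.05 (6.14% of all genes), with a median log2 fold change of -0.59 where that for EHP-101 was -0.71. Between EHP-101 and losartan 0 of the 8 were below an unadjusted 0.05, in edgeR and in both other tools. For EHP-101 against Ang II, the log2 fold change of Fcgr1, a receptor for antibodies, was -1.19 ± 0.27 (adjusted p = 0.328, edgeR). That of Adgre1, which encodes the macrophage antigen F4/80, was -0.95 ± 0.25 in the same comparison (adjusted p = 0.341, edgeR). The 5 B cell markers summed to 3.38, 1.31 and 4.03 CPM under EHP-101 and 3.3, 5.77 and 4.93 under losartan, against 6.61, 5.69 and 6.63 with Ang II only and 6.18, 6.08 and 3.55 in Control hearts. The lowest of these sums, in EHP-101 replicate 2, belonged to the library with the highest Cnr2 of its group. All 5 were negative for EHP-101 against Ang II, 4 at an unadjusted p under 0.05 in edgeR (5.11% of all genes were lower). For losartan against Ang II all 5 were negative as well, 0 at that value. The median log2 fold change was -0.32 for losartan and -1.1 for EHP-101, each against Ang II. Between EHP-101 and losartan all 5 were negative, 2 at that value (2.97% of all genes were lower). The part of either cell type in the Cnr2 values was not tested.

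Cnr1 was close to the limit of detection. It had 47 reads in the 12 libraries together, with 3, 4 and 0 in the EHP-101 libraries and 2, 6 and 1 under losartan, against 5, 3 and 12 in the Ang II libraries and 6, 1 and 4 in the Control libraries. The single highest library, Ang II replicate 3, held 12 of the 20 reads of its group. The count of 0 in EHP-101 replicate 3 allows a level of up to 0.131 CPM, taking 3 counts as the limit. The summed counts gave 0.103 CPM (0.0415 to 0.213) in EHP-101 hearts and 0.130 (0.0595 to 0.247) in losartan hearts, against 0.259 (0.159 to 0.401) with Ang II only and 0.165 (0.0826 to 0.296) in Control hearts. Every one of these Poisson intervals overlaps each of the others. Without the filter on low counts the log2 fold change was 0.63 for Ang II against Control (adjusted p = 0.732), -1.26 for EHP-101 against Ang II (0.887) and -0.95 for losartan against Ang II (0.849), all in edgeR. No difference in Cnr1 was detectable at this depth. Nerve and Schwann cell markers, from a tissue rich in CB1, summed to 13.1 to 16.8 CPM in EHP-101 hearts and 12.3 to 14.2 in losartan hearts, against 13.7 to 23.4 in Ang II hearts and 8.45 to 17.0 in Control hearts, and their part in the Cnr1 counts was not tested.

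**Figure D3:**
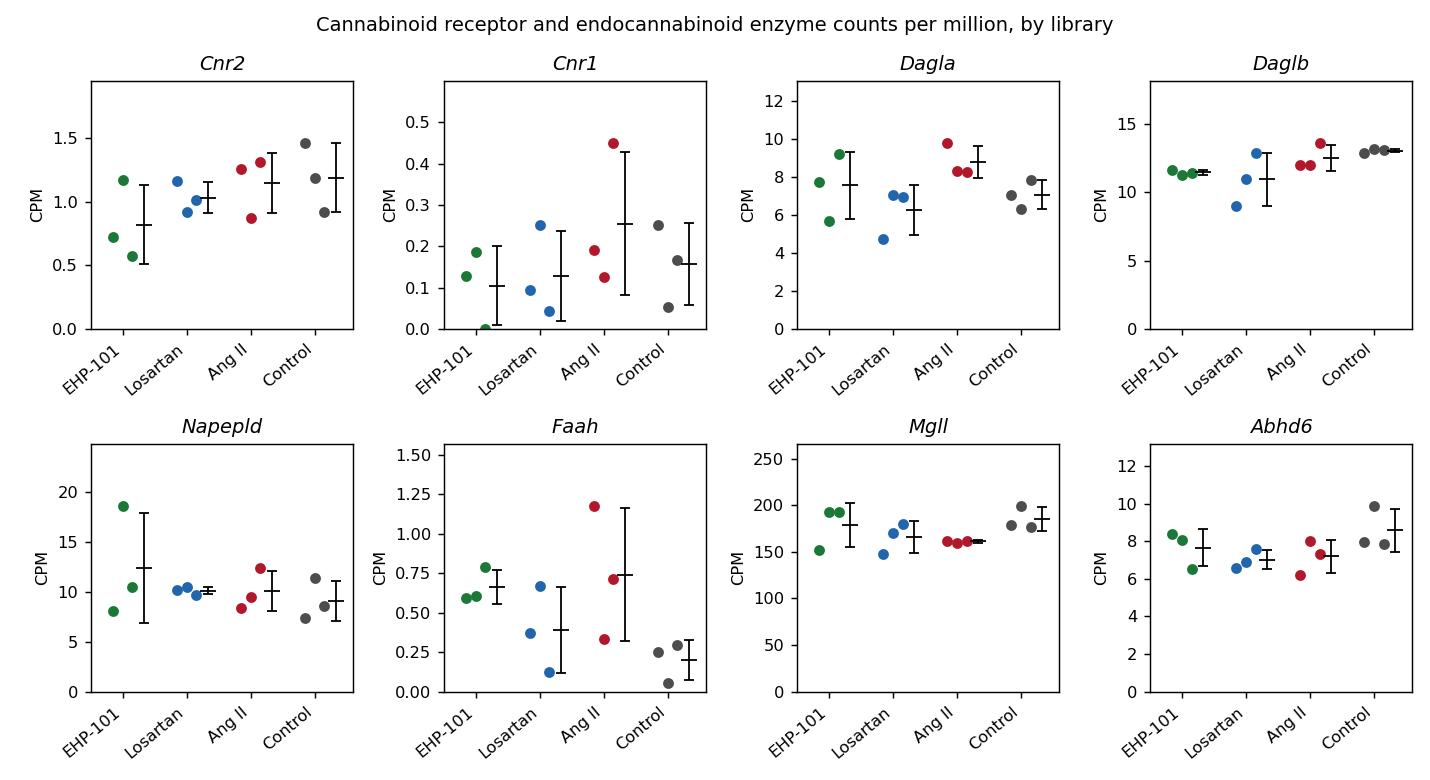
CPM of each gene in every library (points), with the group mean and SD over 3 libraries beside them, in panels with their own axes from 0. Cnr2 has its 2 lowest libraries under EHP-101, the 4 lowest Faah values are the 3 Control libraries and 1 losartan library, and Mgll stays between 147.2 and 199.6 CPM.

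Both diacylglycerol lipases were present at similar levels per length, and Dagla was the more variable. Dagla had 7.74, 5.71 and 9.24 CPM under EHP-101 and 4.74, 7.07 and 6.96 under losartan, against 9.80, 8.31 and 8.28 in Ang II hearts and 7.06, 6.30 and 7.84 in Control hearts. All 3 Ang II libraries were above all Control and all losartan libraries, while the EHP-101 libraries, from 5.71 to 9.24 CPM, overlapped all 3 other groups. For losartan against Ang II the log2 fold change was -0.49 ± 0.20 (SE; 95% interval -0.926 to -0.0535), with an unadjusted p of 0.0307 and an adjusted p of 0.513 in edgeR. For Ang II against Control it was 0.31 ± 0.20 (adjusted p = 0.416), or 0.24 without Control replicate 2, and for EHP-101 against Ang II -0.22 ± 0.20 (95% interval -0.651 to 0.216, adjusted p = 0.935). EHP-101 against losartan gave 0.27 ± 0.20 (adjusted p = 0.942).

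Daglb, the isoform better known from macrophages and microglia, was the steadiest of the synthetic enzymes. It had 11.6, 11.3 and 11.4 CPM under EHP-101 and 8.97, 10.96 and 12.9 under losartan, against 11.96, 12 and 13.6 with Ang II only and 12.9, 13.1 and 13.1 in Control hearts. The 3 EHP-101 values lay just below the Ang II values without overlap, a log2 fold change of -0.13 ± 0.13 with a 95% interval from -0.422 to 0.162 (adjusted p = 0.951, edgeR). For losartan against Ang II it was -0.20 ± 0.13 (adjusted p = 0.758), and for Ang II against Control -0.06 ± 0.13 (adjusted p = 0.838). The last of these became 0.12 when libraries were scaled by size alone. EHP-101 against losartan gave 0.07 ± 0.14 (adjusted p = 0.998). The ratio of Dagla to Daglb, per length, was 0.843 to 1.35 under EHP-101, 0.880 to 1.07 under losartan, 1.01 to 1.36 with Ang II only and 0.798 to 0.997 in Control hearts. The bases shared with Rac1 leave the Daglb term of that ratio uncertain, in a direction that depends on how shared reads were counted.

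Napepld varied between replicates more than between groups. It had 8.08, 18.7 and 10.5 CPM under EHP-101, 10.2, 10.5 and 9.74 under losartan, 8.39, 9.51 and 12.4 with Ang II only and 7.43, 11.4 and 8.59 in Control hearts. One library, EHP-101 replicate 2, stood above the other 11, and the group means of 12.4 ± 5.5, 10.1 ± 0.36, 10.1 ± 2.1 and 9.13 ± 2.0 CPM (SD, n = 3 each, in the same order of groups) lay within the spread of the first. The log2 fold change for EHP-101 against Ang II was 0.30 ± 0.27 (95% interval -0.282 to 0.875, adjusted p = 0.934, edgeR), and without that library it was -0.12. For Ang II against Control it was 0.15 ± 0.27 (adjusted p = 0.792), or 0.33 without Control replicate 2, and for losartan against Ang II 0.00 ± 0.27 (adjusted p = 0.998). EHP-101 against losartan gave 0.29 ± 0.27 (adjusted p = 0.969).

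Faah had the widest range of the 7 tested members, 21.9-fold between the highest and the lowest library, on very few reads. The EHP-101 libraries had 0.592, 0.608 and 0.788 CPM from 14, 13 and 18 reads, and the losartan libraries 0.372, 0.669 and 0.127 CPM from 8, 16 and 3 reads. The Ang II libraries had 1.18, 0.332 and 0.712 CPM from 31, 8 and 19 reads, and the Control libraries 0.251, 0.0538 and 0.292 CPM from 6, 1 and 7 reads. All Ang II and all EHP-101 libraries were above all Control libraries, and the losartan libraries overlapped every other group. Faah averaged 0.741 ± 0.42 CPM in Ang II hearts and 0.199 ± 0.13 CPM in Control hearts (SD, n = 3 each), a log2 fold change of 1.82 ± 0.63 (SE; 95% interval 0.457 to 3.18) or 3.53-fold. The unadjusted p was 0.0129 and the adjusted p 0.204 in edgeR, which does not pass. Faah passed the filter on low counts through libraries outside the Control group, where it was higher. In a fit to Ang II and Control alone it did not pass the filter and had no value. The log2 fold change was 1.33 to 2.18 with single libraries left out (adjusted p from 0.111 to 0.628), and 1.44 without Control replicate 2, the library that stood apart and had a single Faah read. Summed counts of 58 and 14 gave 0.752 CPM (0.571 to 0.973) with Ang II and 0.211 (0.115 to 0.353) in Control hearts, and these counting intervals do not overlap. They leave out variation between libraries. The coefficient of variation of Faah within groups was 53.2%, where counting by itself gives 28.9%.

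With treatment added to Ang II, Faah gave no clear direction. EHP-101 against Ang II had a log2 fold change of -0.17 ± 0.54 (95% interval -1.33 to 0.996, adjusted p = 0.983, edgeR), which ran from -0.51 to 0.34 with single libraries left out. Losartan against Ang II had -0.92 ± 0.57 (95% interval -2.16 to 0.310, adjusted p = 0.719), which was -1.58 without losartan replicate 2, -0.50 without losartan replicate 3 and -0.42 without Ang II replicate 1. EHP-101 against losartan had 0.76 ± 0.58 (95% interval -0.506 to 2.02, adjusted p = 0.942), which was 1.41 without losartan replicate 2 and 0.34 without losartan replicate 3. Fibroblast markers (Pdgfra, Dcn, Tcf21, Col1a1 and Lum) summed to 1482 to 1679 CPM under EHP-101 and 1015 to 1626 under losartan, against 1580 to 2234 with Ang II only and 938.9 to 1318 in Control hearts. All 5 were positive for Ang II against Control, 4 at an unadjusted p under 0.05 (9.09% of all genes were higher at that value), with 0 past the threshold in edgeR and in limma-voom and 2 (Lum and Col1a1) in DESeq2. Lum, a matrix proteoglycan, had a log2 fold change of 1.15 ± 0.23 and Col1a1, a chain of fibrillar collagen, 1.80 ± 0.38 (adjusted p = 0.0525 and 0.0635). Adipocyte markers summed to 23.0, 7.53 and 5.82 CPM under EHP-101, 3.90, 32.0 and 1.81 under losartan, 40.7, 7.68 and 16.8 with Ang II only and 11.1, 1.13 and 11.2 in Control hearts. Within the Ang II, losartan and Control groups the libraries ranked alike by Faah and by these adipocyte sums, and within the EHP-101 group in the opposite order, with 3 libraries in each. All 4 tested adipocyte markers were positive for Ang II against Control, 0 of them at an unadjusted p under 0.05, and Lep was not tested for lack of reads. The atrial marker sums were 205, 119.8 and 702 CPM under EHP-101, 126, 1353 and 13.1 under losartan, 1968, 1289 and 1030 with Ang II only and 981.8, 123.7 and 1340 in Control hearts. In each of the 4 groups the library with the most Faah was also the one with the highest atrial sum, and within losartan and within Control all 3 libraries ranked alike. The part of any of these cell types in the Faah values was not tested.

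**Figure D4:**
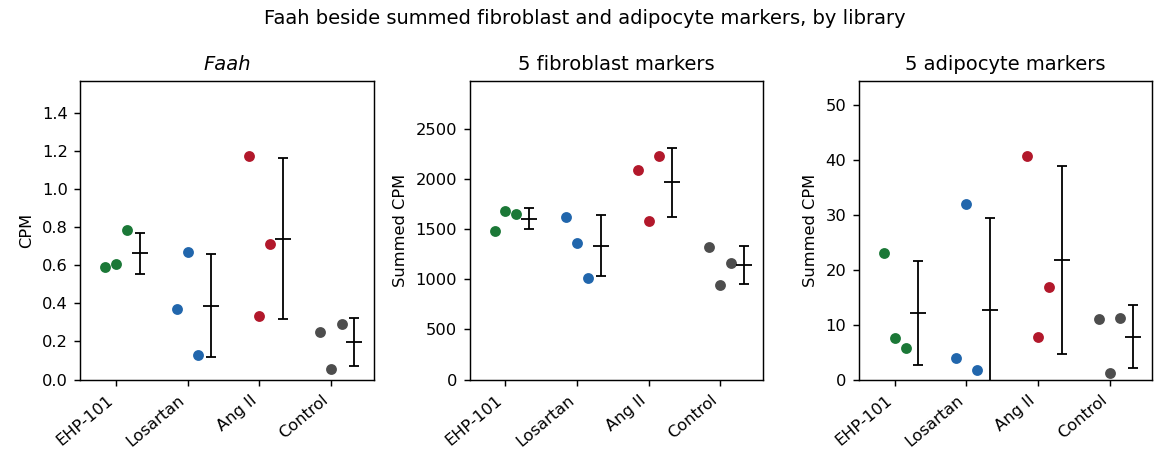
Faah (CPM) beside the summed CPM of 5 fibroblast and 5 adipocyte markers in each library (points), with group means and SD over 3 libraries; an SD bar that would pass below 0 is cut at the axis. The Ang II libraries lie above the Control libraries for Faah and for the fibroblast sum, between 1580 and 2234 CPM against 938.9 to 1318, and the adipocyte sums overlap.

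Mgll was measured with the most precision, from 3168 to 4402 reads per library. It had 151.6, 192.3 and 192.7 CPM under EHP-101 and 147.2, 170.3 and 180.4 under losartan, against 162.2, 159.3 and 162.2 with Ang II only and 179.3, 199.6 and 176.7 in Control hearts. With TMM scaling the 3 Ang II libraries were nearly equal and lay below all Control libraries, and each treated group had libraries on both sides of them. For Ang II against Control the log2 fold change was -0.20 ± 0.13 (SE; 95% interval -0.481 to 0.0815, adjusted p = 0.424, edgeR). Scaling by library size alone brought it to -0.02. On that scale the Ang II libraries had 180.4, 162.6 and 180 CPM and the Control libraries 184.5, 167.4 and 178.2, and the groups overlapped. For EHP-101 against Ang II the log2 fold change was 0.15 ± 0.13 (95% interval -0.132 to 0.431, adjusted p = 0.934) and for losartan against Ang II 0.04 ± 0.13 (95% interval -0.239 to 0.323, adjusted p = 0.976), and both turned negative under library size alone. EHP-101 against losartan gave 0.11 ± 0.13 (95% interval -0.174 to 0.389, adjusted p = 0.996). All 4 of the Mgll intervals lay between -0.481 and 0.431.

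Abhd6, which hydrolyses 2-arachidonoylglycerol at the membrane, was far below Mgll per length, at 3.22 against 34.0 CPM per kilobase. It had 8.37, 8.09 and 6.52 CPM under EHP-101 and 6.60, 6.90 and 7.59 under losartan, against 6.23, 8.02 and 7.35 with Ang II only and 7.98, 9.90 and 7.89 in Control hearts. Only Ang II replicate 2 reached into the Control range. For Ang II against Control the log2 fold change was -0.25 ± 0.16 (95% interval -0.596 to 0.0895, adjusted p = 0.407, edgeR), and -0.14 without Control replicate 2. For EHP-101 against Ang II it was 0.09 ± 0.16 (adjusted p of 0.975) and for losartan against Ang II -0.03 ± 0.16 (adjusted p = 0.985). EHP-101 against losartan gave 0.12 ± 0.16 (adjusted p = 0.998). The share of Mgll in the summed per-length level of the 2-arachidonoylglycerol hydrolases Mgll, Abhd6 and Abhd12 was 60.8% to 68.0% under EHP-101, 62.4% to 67.5% under losartan, 61.4% to 66.2% with Ang II only and 59.6% to 66.3% in Control hearts. These ranges overlap in every pair of groups.

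Levels of the members were compared with each other across the 12 libraries. Of 21 pairs of tested members, none passed Benjamini-Hochberg adjustment. The strongest was Faah with Abhd6, with a Pearson r of -0.71 (permutation p = 0.00906, adjusted p = 0.19) and a Spearman rho of -0.64 (permutation p = 0.0307, adjusted p = 0.615), and r was -0.58 without the 2 libraries farthest from the median of Faah. Dagla and Daglb, which catalyse the same reaction, had an r of 0.52 (permutation p = 0.086, adjusted p = 0.554), which was 0.06 without the 2 libraries farthest from the median of Dagla. The libraries span 4 groups, and a shared group mean enters each of these values.

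Genes with the most similar pattern over the 12 libraries were taken from 12427 candidates, by Pearson correlation of log2 CPM and as a description. The closest to Cnr2 were Tmem106a (r = 0.87), Fcna (0.83) and Susd1 (0.83). Faah was closest to Adamtsl3 (0.98), Rbms3 (0.96) and Slc1a3 (0.95), and Dagla to Exoc3l2 (0.95) and Psd (0.94). For Daglb they were Ncln (0.96), Sele (0.94) and Ext2 (0.92), and for Napepld Tes (0.95), Syt12 (0.91) and Esam (0.89). Mgll was nearest to Ube2d1 (0.91), Pnkd (0.89) and Colq (0.88), and Abhd6 to Nomo1 (0.95), Lrrc1 (0.93) and Mief1 (0.92). Each value is among the highest of the 12427 candidates over 12 libraries and carries no test.

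Beyond the 8 genes, 7 lists held 78 genes for other lipid receptors, other enzymes of both messengers, arachidonic acid enzymes, lipid carriers, receptor partners and PPARG targets, drawn from textbook roles. In edgeR and in limma-voom 0 of them passed in any of the 4 comparisons, while DESeq2 called 3 for Ang II against Control and 1 for losartan against Ang II, named beside their lists. Of 5 tested receptors that bind related lipids, 0 were below an unadjusted p of 0.05 for Ang II against Control in edgeR and in DESeq2 and 1 in limma-voom. In edgeR 1 was lower for EHP-101 against Ang II and 1 for losartan against Ang II (5.11% and 6.14% of all genes). That 1 was in both cases Trpv2, a cation channel, at 4.38 ± 0.32 CPM under EHP-101 and 4.41 ± 0.28 under losartan, against 6.33 ± 0.82 with Ang II alone (SD, n = 3 each). Its log2 fold changes were -0.53 ± 0.16 and -0.52 ± 0.16 (adjusted p = 0.436 and 0.366, edgeR). The 2 comparisons share the Ang II libraries. Trpv2 had 0.35 ± 0.16 for Ang II against Control (unadjusted p = 0.0525, adjusted p = 0.289). Gpr55, Gpr18, Gpr119 and Trpv1 had too few reads to be tested.

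No other enzyme of the N-acylethanolamines passed in any comparison. Of 10 tested, 0 were below an unadjusted p of 0.05 in any comparison in edgeR and in DESeq2, while limma-voom had 1 for Ang II against Control. Ptpn22, a phosphatase best known from lymphocytes, had the smallest edgeR p of the list, with 1.28 ± 0.18 CPM in Ang II hearts and 0.812 ± 0.23 CPM in Control hearts (log2 fold change 0.66 ± 0.31, unadjusted p = 0.054, adjusted p = 0.292). Naaa, the acid amidase that degrades palmitoylethanolamide, had -0.34 ± 0.17 for EHP-101 against Ang II (adjusted p = 0.744, edgeR). Of 13 other enzymes of 2-arachidonoylglycerol and its precursors, 3 were below an unadjusted p of 0.05 for Ang II against Control, 2 of them higher and 1 lower (9.09% and 8.53% of all genes). At the same p 1 was higher for EHP-101 against Ang II (2.11%) and 1 was lower for losartan against Ang II (6.14%). Agk, a lipid kinase of mitochondria, averaged 9.92 ± 0.33 CPM in Ang II hearts and 13.7 ± 2.0 CPM in Control hearts (log2 fold change -0.46 ± 0.14, adjusted p = 0.155). Plcb2, a phospholipase C of blood cells, averaged 4.73 ± 0.79 and 2.98 ± 0.64 CPM in the same groups (0.66 ± 0.22, adjusted p = 0.188). Pnpla2, the lipase that starts the breakdown of stored fat, averaged 338.9 ± 42 CPM under EHP-101 and 251.6 ± 26 with Ang II alone (0.43 ± 0.16, adjusted p = 0.562).

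Enzymes that release or oxidise arachidonic acid spread widely. Of 13 tested, 4 were higher and 1 was lower below an unadjusted p of 0.05 for Ang II against Control (9.09% and 8.53% of all genes), with a median log2 fold change of 0.35 over the list and 0.00 over all genes. Under EHP-101 12 of the 13 were negative against Ang II, 2 of them below that p (5.11% of all genes), with a median of -0.36. Under losartan 11 were negative against Ang II, 5 of them below that p (6.14%), with a median of -0.22. Ptgs2, the inducible cyclooxygenase that can also oxidise endocannabinoids, averaged 7.84 ± 3.7 CPM in Ang II hearts and 2.06 ± 0.96 CPM in Control hearts. Its log2 fold change was 1.91 ± 0.46 and did not pass in edgeR (adjusted p = 0.102), while DESeq2 called it (adjusted p = 0.00397) and limma-voom did not. For losartan against Ang II, Ptgs2 had 2.35 ± 1.3 CPM against 7.84 ± 3.7 (-1.73 ± 0.46, adjusted p = 0.309 in edgeR and 0.0293 in DESeq2), and for EHP-101 against Ang II 3.91 ± 0.91 against 7.84 ± 3.7 (-1.004 ± 0.44, adjusted p = 0.661, edgeR). Ptgis, the prostacyclin synthase, had 32.7 ± 2.2 CPM under EHP-101 and 19.6 ± 7.5 under losartan, against 34.6 ± 6.6 with Ang II only and 20.7 ± 2.1 in Control hearts. It did not pass in any comparison in edgeR, with adjusted p = 0.152 for Ang II against Control, 0.316 for losartan against Ang II and 0.612 for EHP-101 against losartan.

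**Figure D5:**
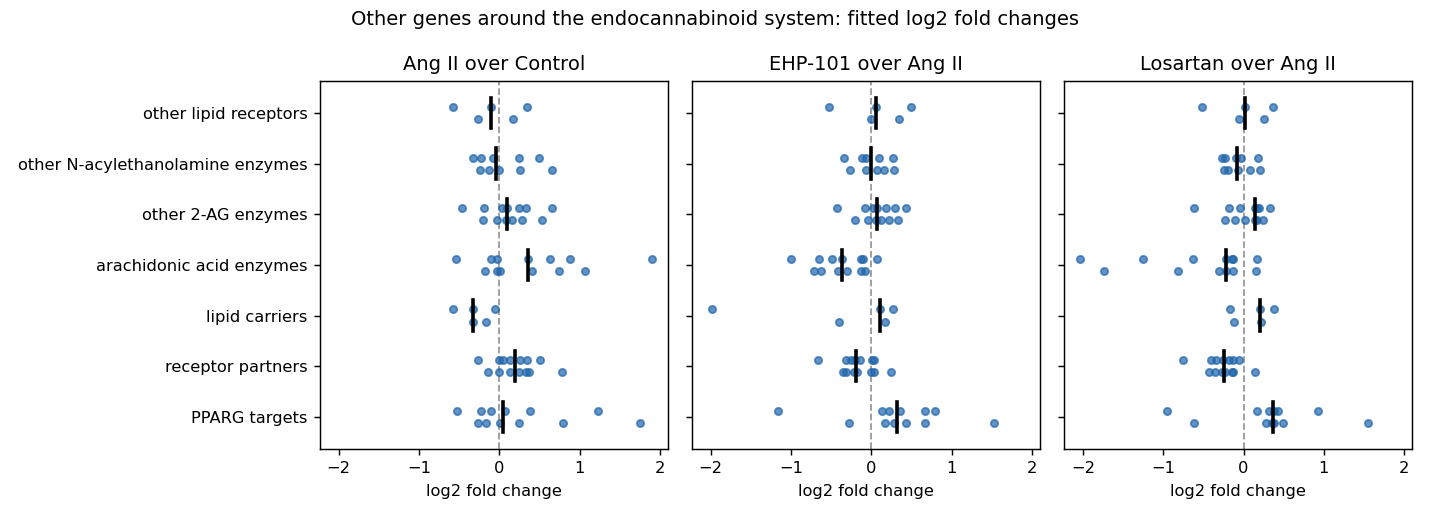
Fitted log2 fold changes (points, 1 per tested gene) of the 7 lists of other genes in 3 comparisons, with a black bar at each list's median and a dashed line at 0. The medians lie between -0.36 and 0.37, and no point passed the adjusted threshold in edgeR.

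Receptor partners and carriers gave single genes of low p. Of 14 partners of the receptors, 3 were higher at an unadjusted p under 0.05 for Ang II against Control (9.09% of all genes), 1 was lower for EHP-101 against Ang II (5.11%) and 4 were lower for losartan against Ang II (6.14%). For EHP-101 against losartan 3 were higher (3.07% of all genes). Gnai3, an inhibitory G protein subunit, averaged 44.9 ± 1.7 CPM in Ang II hearts and 34.6 ± 1.5 CPM in Control hearts (log2 fold change 0.37 ± 0.10, adjusted p = 0.124 in edgeR and 0.0147 in DESeq2). Gnao1, a G protein subunit abundant in neurons, averaged 50.5 ± 13 and 29.3 ± 8.9 CPM in the same groups (0.78 ± 0.23, adjusted p = 0.151 in edgeR and 0.0464 in DESeq2). Of 5 tested lipid carriers 2 were lower for Ang II against Control, 1 for EHP-101 against Ang II and 1 for EHP-101 against losartan (8.53%, 5.11% and 2.97% of all genes). Fabp7, the fatty acid binding protein of brain and glia, had 0.221 ± 0.011 CPM under EHP-101 and 0.795 ± 0.0056 under losartan, against 0.892 ± 0.39 with Ang II alone. For EHP-101 against Ang II its log2 fold change was -1.99 ± 0.48 (adjusted p = 0.328, edgeR), on few reads.

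Target genes of PPARG, the second receptor of EHP-101, were examined beside CB2, and Adipoq and Cidec among them are also adipocyte markers. Of 12 tested, 10 had a positive log2 fold change for EHP-101 against Ang II, 3 of them at an unadjusted p under 0.05 (2.11% of all genes) and 0 past the threshold in edgeR, with a median of 0.31 where that of all genes was 0.00. For losartan against Ang II the same list had 10 positive values, 2 at an unadjusted p under 0.05 (2.26% of all genes), and a median of 0.37. In both comparisons the negative values were those of Adipoq and Cidec. Their log2 fold changes were -1.17 ± 1.003 and -0.27 ± 0.92 for EHP-101 against Ang II (adjusted p = 0.934 and 0.984, edgeR). For losartan against Ang II they were -0.95 ± 0.99 and -0.62 ± 0.93 (adjusted p = 0.878 and 0.935, edgeR). Both comparisons share the Ang II libraries. Between EHP-101 and losartan the list had a median of -0.12, with 0 of 12 below an unadjusted p of 0.05 in edgeR and in both other tools. Plin4, a coat protein of lipid droplets, had 291.3 ± 100 CPM under EHP-101 against 167.7 ± 13 with Ang II alone (0.80 ± 0.25, adjusted p = 0.438), and Lpl, the lipoprotein lipase, 6308 ± 798 against 4664 ± 455 (0.44 ± 0.17, adjusted p = 0.58). Pdk4, a kinase that restrains glucose oxidation, had 1176 ± 1418 CPM under losartan against 400.8 ± 153 with Ang II alone (1.55 ± 0.67, adjusted p = 0.548, edgeR), a mean smaller than its SD. Pparg itself had 12.5 ± 3.8 CPM under EHP-101 and 11.8 ± 1.7 under losartan, against 9.88 ± 0.13 with Ang II alone (0.34 ± 0.21 with adjusted p = 0.855, and 0.26 ± 0.21 with adjusted p = 0.815, edgeR). Cardiomyocyte markers were read beside this list, and their summed level was 37890 to 45610 CPM under EHP-101 and 36110 to 42310 under losartan, against 31720 to 38810 with Ang II only and 32860 to 42560 in Control hearts. All 5 had a positive log2 fold change for EHP-101 against Ang II, with a median of 0.35, 2 of them at an unadjusted p under 0.05 (2.11% of all genes) and 1 (Tnnt2) past the threshold in DESeq2. All 5 were positive for losartan against Ang II as well, with a median of 0.19 and 0 at an unadjusted p under 0.05 in the 3 tools. Their part in the values of the PPARG list was not tested.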

How the data were processed

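The deposited values were raw counts of reads per gene, made by the authors and not normalised. Per the labels' protocols, 300 ng of Qiazol-extracted RNA were selected for poly(A) RNA, prepared with an unstranded TruSeq kit and read from one end for 50 bases. The submitters' processing notes name fastp 0.20.0, HISAT2 2.1.0, featureCounts 2.0.0, edgeR 3.30.0 and the build GRCm38. The gene annotation behind the counts is not given in the sources used here. GENCODE M21 placed 47310 of the 47729 genes, and 47224 had a symbol. Groups came from sample titles. Control titles also name the hormone, and these samples were read as the saline arm of the design.

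The fit used edgeR 4.0.16 (R 4.3.3): filterByExpr, TMM, a mean per group over all 12 libraries, a robust quasi-likelihood fit (common biological coefficient of variation 0.189), two-sided F tests and Benjamini-Hochberg adjustment over 15336 genes. The SE of a log2 fold change is its size divided by the square root of F and restates that test, and 95% intervals use the same SE. Alternatives, 1 at a time, were DESeq2 1.42.0, limma-voom 3.58.1, scaling by RLE or by library size alone, no filter or a minimum mean of 5 CPM, a replicate block, a fit to the 2 groups compared, and each library left out. Levels per length used merged exons. Log2 CPM had a prior count of 2. Correlations used 100000 permutations. With 3 against 3 libraries an exact permutation p has a minimum of 0.1, so none was run on single genes.

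The 8 members and all lists were chosen with earlier results of these data known. Of each list, up to 2 genes with the smallest p in a comparison could be named, or up to 4 past the threshold, and for each member the 3 genes of most similar pattern with a mean of at least 1 CPM, predicted genes and pseudogenes aside. Of these most similar genes, 1 is not reported here. Of the 78 pathway genes, 25 share exon bases with another gene. Replicates of each group differed by more than counting noise.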

Additional observations from a re-analysis of the deposited data

How the results depend on the processing

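Over 8 alternative settings and 12 left-out libraries, 0 of the members tested under each were called in any comparison. Cnr2 and Faah had no value with a mean of at least 5 CPM, nor Faah for Ang II against Control in the fit to those 2 groups. Of 551 alternative values of the 28 member log2 fold changes, 530 kept their sign and 21 in 12 results changed it, all where the log2 fold change was at most 0.296 in size. Without TMM, on library size alone, the all-gene median shifted by 0.17 for Ang II against Control, -0.15 for EHP-101 against Ang II, -0.12 for losartan against Ang II and -0.03 for EHP-101 against losartan. It turned Cnr2 (to 0.13) and Daglb (0.12) for Ang II against Control, Mgll (-0.0038) and Abhd6 (-0.057) for EHP-101 against Ang II, and Napepld (-0.12) and Mgll (-0.078) for losartan against Ang II. Under it Daglb averaged 11.2 CPM with EHP-101, 13.6 with Ang II and 12.5 in Control, and Mgll 174.3 with Ang II. A mean of at least 5 CPM turned Napepld for losartan against Ang II (-0.014). With single libraries left out, Cnr2 for Ang II against Control ran from -0.19 to 0.13 and Napepld from -0.014 to 0.33. For EHP-101 against Ang II, Napepld ran from -0.12 to 0.53 and Faah from -0.51 to 0.34. For losartan against Ang II, Napepld ran from -0.11 to 0.18, Mgll from -0.021 to 0.12 and Abhd6 from -0.12 to 0.052. For EHP-101 against losartan, Daglb ran from -0.058 to 0.20 and Napepld from -0.13 to 0.52. The cause was not tested. With the replicate block 0 members were called, and Faah for Ang II against Control had 1.80 (adjusted p = 0.227, edgeR). Same-numbered libraries correlated from -0.33 to 0.33, and libraries of different numbers from -0.374 to 0.315. Of the 12 libraries, 6 correlated best with their own number and 6 with another number. Whether the numbers pair samples was not tested.

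Over all genes, calls for Ang II against Control numbered 83, but 505 in DESeq2, 51 in limma-voom, 167 without the filter, 20 with only the 2 groups, and 8 to 151 with single libraries left out (8 without Ang II replicate 1 or 3, 15 without Control replicate 2, 21 and 25 without Control replicates 3 and 1, 51 without EHP-101 replicate 1, and 151 without Ang II replicate 2). For EHP-101 against Ang II they were 60 in DESeq2, 10 without the filter and 3 with 2 groups, where edgeR had 0. For losartan against Ang II they were 108, 30 and 1, and 3 without Control replicate 2. For EHP-101 against losartan they were 25 in DESeq2, 3 without the filter and 2 without Control replicate 2. Of the pathway genes, 1 was called for Ang II against Control without Ang II replicate 2, and DESeq2 called 3 there and 1 for losartan against Ang II. For Cnr2, counting by itself gives a coefficient of variation of 20.2%, close to the 23.6% pooled within groups. Single groups ran from 11.8% under losartan to 38.1% under EHP-101. For Faah and Cnr1 counting gives 28.9% and 50.5%, against 53.2% and 76.1% within groups. For Mgll counting gives 1.58%, against 9.17% within groups. The spread of Faah, Cnr1 and Mgll within groups was thus larger than counting gives.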
